A study of Mesocricetus auratus with 6 samples.

Results

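The Clk and Srpk kinases and the cyclins L are regulators of pre-mRNA splicing, and their 8 genes (Clk1, Clk2, Clk3, Clk4, Srpk1, Srpk2, Ccnl1 and Ccnl2) were followed here in the uterus of the pregnant golden hamster. Members were found by gene symbol, taking every probe set (a set of short probes read as 1 value) whose platform annotation gave a single symbol equal to a member. All 8 genes were found, among 12393 gene symbols with such a probe set. They were measured by 14 of the 22626 probe sets tested. The data were 6 arrays of day 5 of pregnancy, 3 of embryo implantation sites and 3 of interimplantation sites, the stretches of uterus without an embryo. Within each group the RNA came from 3 animals. The labels give no treatment, and no genotype or age was stated in the sources used here. Each sample was a piece of uterus holding all its cell types, and the labels do not say whether the embryo was left in the implantation site. Hamster RNA was read with probes made for mouse, and symbols follow the mouse annotation. Values are log2 RMA signals, differences are implantation minus interimplantation on the log2 scale. Precision is limited by having 3 arrays a group.

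Splicing of pre-mRNA is steered in part by SR proteins, RNA-binding proteins with a tail rich in serine and arginine. Srpk kinases phosphorylate these tails mainly in the cytoplasm, which lets SR proteins enter the nucleus, and Clk kinases phosphorylate them further in the nucleus, which releases them from the nuclear speckles where they are stored. Cyclins L are partners of the kinase Cdk11, carry a serine- and arginine-rich tail of their own and reside in speckles. Transcripts of Clk1, Clk4 and the cyclins L are known in mouse and human to be alternatively spliced, with forms that do not encode the full protein. A probe set whose name ends in _a_at matches several transcripts of 1 gene, and 8 of the 14 probe sets are of this kind, so that forms of a transcript were not told apart. In the rodent uterus, stromal cells around the attached embryo proliferate and become decidual cells, while this does not happen between the sites.

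At the implantation site, transcripts of Clk1 were lower by 1.77-fold, and those of Clk4 by 1.62-fold at 1 of its 2 probe sets. The other Clk4 probe set and the average of both were not called, and the Clk4 call depended on single arrays. Transcripts of the cyclin L gene Ccnl2 were lower by 1.26-fold to 1.61-fold, with 2 of its 3 probe sets called. Ccnl1 was at −0.35 on the log2 scale and was not called. Transcripts of Clk2, Clk3, Srpk1 and Srpk2 differed by −0.08 to 0.13 on that scale. With arrays scaled to the hybridisation controls, no member probe set was called. With limma and Benjamini-Hochberg adjustment over all 22626 probe sets, 4 of the 14 member probe sets (28.6%) were called lower at an adjusted p under 0.05, 0 were called higher and 10 were not called. Among all probe sets 1.05% were called lower, 1.26% higher and 2.31% in either direction. At an unadjusted p under 0.05, limma gave 6 member probe sets lower and 0 higher, while 8.35% of all probe sets were lower and 5.63% higher. The groups did not overlap in 7 of the 14, all lower at the implantation site, while of all probe sets 11.7% were apart in that direction, 7.62% in the other and 19.3% in either. These genes were selected on measured values of this same contrast, the signals of implantation and interimplantation arrays, so their differences and adjusted p-values describe these arrays, and nothing is read from the counts. The median of the 14 differences was −0.10, beside −0.02 for all probe sets.

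**Figure D1:**
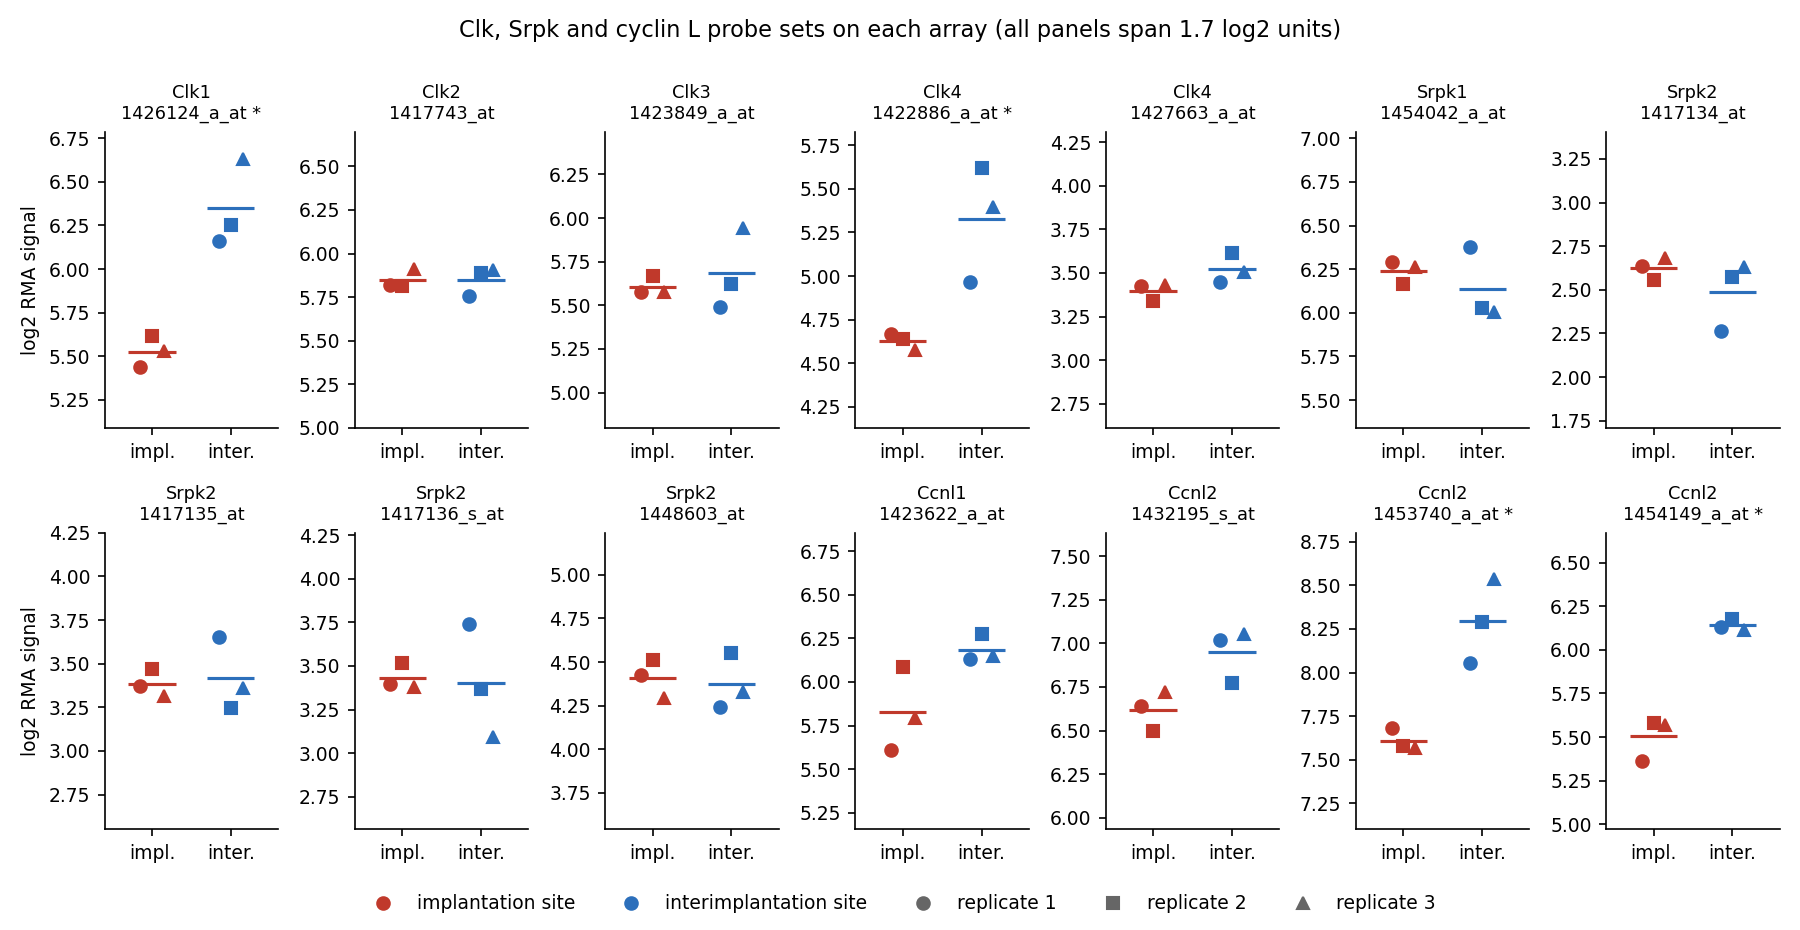
Log2 RMA signal of each Clk, Srpk and cyclin L probe set on the 3 implantation arrays (red, left) and the 3 interimplantation arrays (blue, right). Points are arrays, lines are group means, and an asterisk marks an adjusted p under 0.05. All panels span the same number of log2 units, and the 3 red points lie below the 3 blue points in 7 panels.

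Among the Clk kinases, Clk1 had 1 probe set, with signals of 5.44, 5.62 and 5.53 on the implantation arrays and 6.16, 6.25 and 6.63 on the interimplantation arrays. The groups were apart, and the highest implantation array lay 0.54 below the lowest interimplantation array. The means were 5.53 ± 0.09 and 6.35 ± 0.25 (SD, n = 3 each), a difference of −0.82 (SE 0.12, 95% interval −1.08 to −0.57, limma adjusted p = 0.00335). Of all probe sets, 0.128% had a difference as low or lower. Clk1 is the best-studied kinase of the family, and it phosphorylates both SR proteins and itself.

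Clk4, the closest relative of Clk1, was measured by 2 probe sets. The brighter (1422886_a_at) had 4.67, 4.64 and 4.58 on the implantation arrays, against 4.96, 5.62 and 5.40 on the interimplantation arrays. The groups were apart, with interimplantation array 1 nearest to the implantation arrays. The means were 4.63 ± 0.05 and 5.33 ± 0.33 (SD, n = 3 each), and the difference was −0.70 (SE 0.14, 95% interval −0.99 to −0.40, limma adjusted p = 0.0198). This call held without interimplantation array 1 (−0.88, limma adjusted p = 0.000423). It was lost without implantation array 1, 2 or 3 (limma adjusted p = 0.0850, 0.0807 and 0.102) and without interimplantation array 2 or 3 (limma adjusted p = 0.0554 and 0.0766), although the difference stayed between −0.72 and −0.55. The dimmer probe set of Clk4 (1427663_a_at) had 3.42, 3.34 and 3.43 against 3.45, 3.62 and 3.50. It was also lower on every implantation array, by little, and was not called (−0.12, 95% interval −0.31 to 0.06, limma adjusted p = 0.571). With both probe sets averaged, Clk4 was at −0.41 and was not called (limma adjusted p = 0.0689 over 12393 genes).

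Clk2 and Clk3, the other kinases of the family, did not show this pattern. Clk2 had 5.82, 5.81 and 5.91 on the implantation arrays and 5.76, 5.89 and 5.90 on the interimplantation arrays. The groups overlapped fully, and the difference of −0.0024 had a 95% interval of −0.18 to 0.18. Clk3 had 5.57, 5.67 and 5.58 against 5.49, 5.62 and 5.94, with interimplantation array 3 above all others. Its difference was −0.08 (95% interval −0.32 to 0.17), and neither gene was called (limma adjusted p = 0.995 and 0.825). The intervals leave room for small changes in either direction.

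Cyclins L were lower by each of their 4 probe sets, of which 2 were called. The brightest probe set of Ccnl2 (1453740_a_at) had 7.68, 7.58 and 7.57 on the implantation arrays and 8.05, 8.29 and 8.54 on the interimplantation arrays. Its difference was −0.68 (SE 0.11, 95% interval −0.93 to −0.44, limma adjusted p = 0.00763), with means of 7.61 ± 0.06 and 8.29 ± 0.24 (SD, n = 3 each). With the hybridisation control level as a covariate this call was lost (−0.76, limma adjusted p = 0.0624). The groups stood well apart, and the spread was wider between the sites than at them.

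A further probe set of Ccnl2 (1454149_a_at) had 5.36, 5.58 and 5.57 on the implantation arrays, against 6.13, 6.18 and 6.11 on the interimplantation arrays. The interimplantation arrays were almost level here, and the difference was −0.64 (SE 0.09, 95% interval −0.83 to −0.45, limma adjusted p = 0.00287), with means of 5.50 ± 0.12 and 6.14 ± 0.03 (SD, n = 3 each). The last probe set of the gene (1432195_s_at) was also apart, with 6.64, 6.50 and 6.72 against 7.02, 6.77 and 7.05, but its difference was smaller and was not called (−0.33, 95% interval −0.55 to −0.11, limma adjusted p = 0.134). The ending _s_at marks probes that can match transcripts of more than 1 gene. Averaged over its 3 probe sets, Ccnl2 was at −0.55 (limma adjusted p = 0.00494 over 12393 genes).

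Ccnl1, which encodes the other cyclin L, had 5.61, 6.08 and 5.79 on the implantation arrays and 6.13, 6.27 and 6.15 on the interimplantation arrays. Implantation array 2 came close to the interimplantation arrays, at a gap of 0.05. The difference was −0.35 (SE 0.11, 95% interval −0.60 to −0.11), and the gene was not called (limma adjusted p = 0.158). Without implantation array 2 it was at −0.48 and still not called (limma adjusted p = 0.0538).

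Srpk1, a widely expressed kinase of SR proteins, had 6.29, 6.16 and 6.26 on the implantation arrays and 6.38, 6.03 and 6.01 on the interimplantation arrays. Interimplantation array 1 was the highest of the 6, so the groups overlapped. The difference was 0.10 (95% interval −0.13 to 0.33, limma adjusted p = 0.745). Without interimplantation array 1 it was 0.22 (limma adjusted p = 0.238).

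Srpk2, its close relative, was measured by 4 probe sets with differences from −0.03 to 0.13, none called (limma adjusted p from 0.632 to 0.951). The brightest (1448603_at) had 4.42, 4.51 and 4.29 against 4.24, 4.55 and 4.33, a difference of 0.04 (95% interval −0.18 to 0.26). All 4 overlapped between the groups, and interimplantation array 1 was the lowest array in 2 of them (1417134_at and 1448603_at) and the highest in the other 2 (1417135_at and 1417136_s_at). One of the 4 (1417134_at, mean 2.56) was dimmer than the median of the 27 control probe sets for Bacillus transcripts (2.68), which hamster RNA does not contain. The other 13 member probe sets exceeded that median, and 7 exceeded the brightest of these controls (5.79). Of all 22626 probe sets, 20467 exceeded the median and 4330 the brightest control. A low signal on mouse probes does not show a low level of the hamster transcript.

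**Figure D2:**
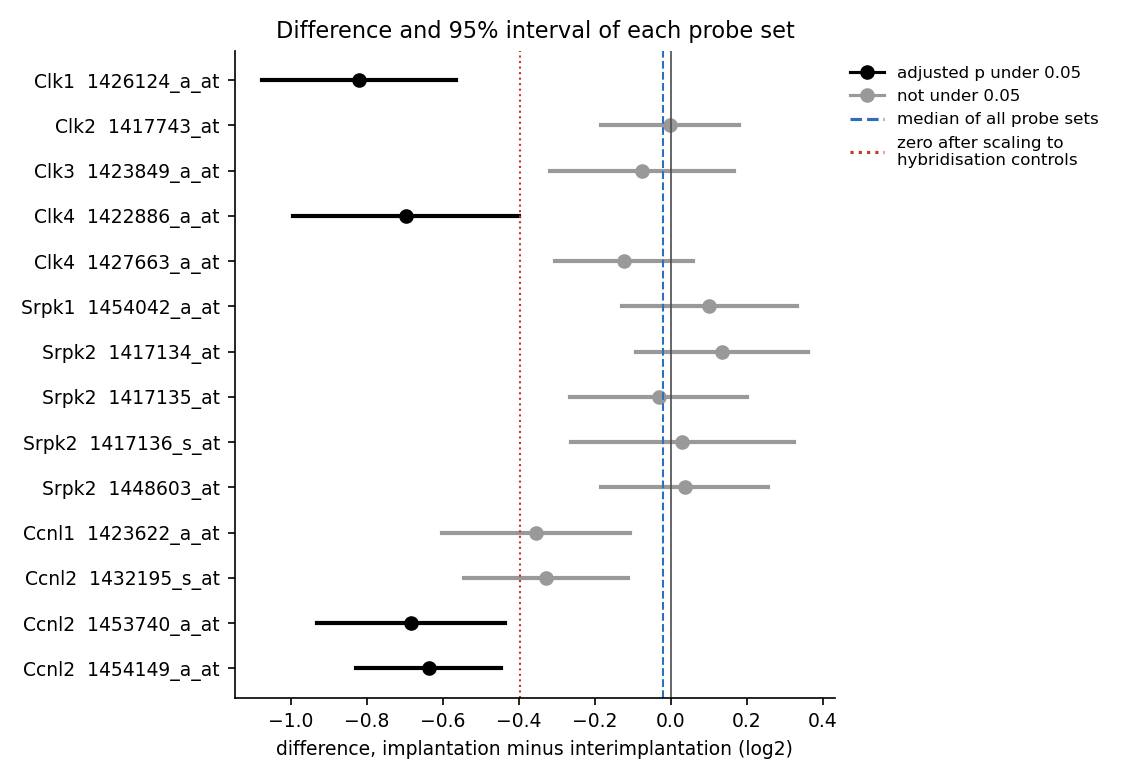
Difference of each Clk, Srpk and cyclin L probe set (log2, implantation minus interimplantation) with its 95% interval from the limma fit, black where the adjusted p was under 0.05. The blue dashed line is the median of all probe sets (−0.02), and the red dotted line is where zero falls after scaling to the hybridisation controls. Clk1, 1 probe set of Clk4 and 2 of Ccnl2 lie farthest to the left.

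The spread between the 3 arrays of a group was mostly smaller at the implantation site for these probe sets. The SD was smaller among the implantation arrays than among the interimplantation arrays in 12 of the 14 probe sets (85.7%), with medians of 0.07 and 0.20. Over all probe sets it was smaller in 58.1%, with medians of 0.09 and 0.11. The exceptions were Ccnl1 and 1 probe set of Ccnl2 (1454149_a_at). These shares are a description, with no test, since probe sets of the same arrays are not independent. Across all probe sets, a principal component with 24.2% of the variance placed interimplantation array 1 at −20.7 and the other interimplantation arrays at 11.6 and 7.67. Without that array the number of member probe sets called lower was 4, and without any other single array it was 3.

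The calls, and some directions, depend on how the arrays are scaled. RMA makes the arrays alike as a whole, so each difference is measured against the bulk of what the array detects. The 18 probe sets of the hybridisation controls follow the hybridisation step and not the amount of RNA in a sample. Scaling to them therefore does not calibrate transcript levels. In the deposited RMA values these controls averaged 6.70, 6.45 and 6.77 on the implantation arrays. They averaged 7.27, 6.75 and 7.08 on the interimplantation arrays. With each array scaled to them, the median over all probe sets became 0.38, and no member probe set was called either way. Clk1 was then at −0.42, the brighter Clk4 probe set at −0.30 and the 2 called Ccnl2 probe sets at −0.29 and −0.24 (limma adjusted p = 0.138, 0.223, 0.240 and 0.309). Ccnl1 turned to 0.04, the other probe set of Ccnl2 to 0.07, Clk2 to 0.39 and Clk3 to 0.32. The distance from the median of all probe sets is the same under any shift of whole arrays. It was −0.80 for Clk1, −0.68 and −0.10 for the brighter and dimmer probe sets of Clk4, and −0.66, −0.62 and −0.31 for those of Ccnl2. For Ccnl1 it was −0.33 and for Clk2 0.02.

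**Figure D3:**
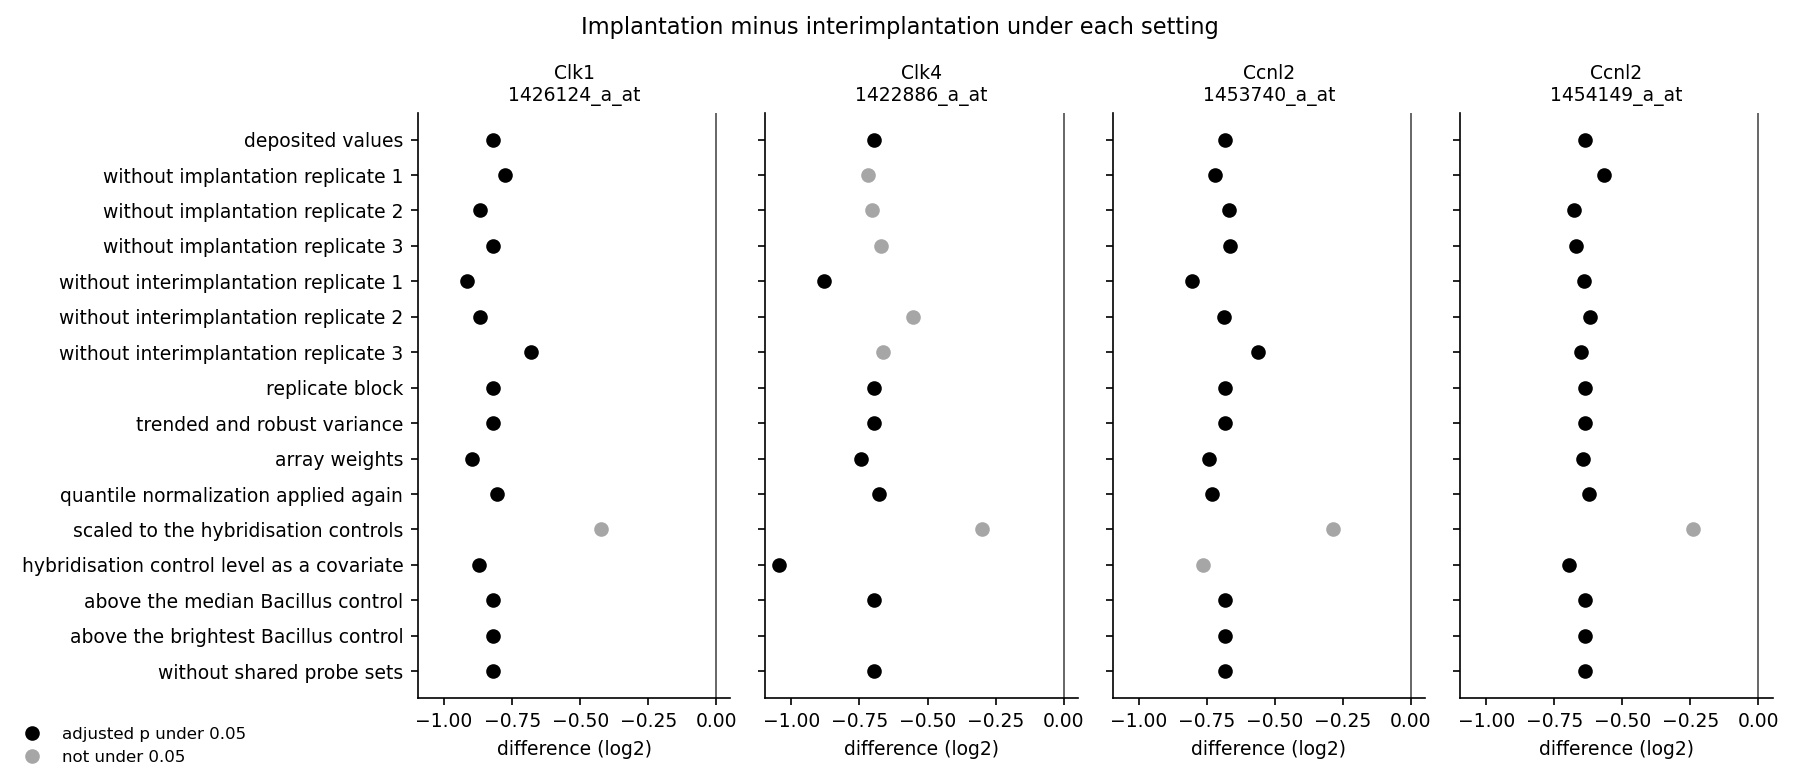
Difference (log2, implantation minus interimplantation) of the 4 called probe sets of Clk1, Clk4 and Ccnl2 under the deposited values and each alternative, black where the adjusted p was under 0.05. All points are negative, the points nearest to zero are those scaled to the hybridisation controls, and Clk4 loses its call when any array but interimplantation array 1 is left out. Clk4 has no point above the brightest Bacillus control because its mean lies below it.

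Other genes of the pathway were taken from 5 lists with 74 genes, of which 65 were measured by 172 probe sets. Of these probe sets 10 were called higher (5.81%) and 1 lower (0.581%), beside the 1.26% and 1.05% of all probe sets. Below, rose and fell mean a transcript signal called higher or lower at the implantation site, and protein was not measured. The SR proteins and transformer-2 proteins, the substrates of these kinases, held 6 of the 10: of 31 probe sets 6 rose, 0 fell and 25 did not pass, with a median of 0.10. Srsf1, the founding SR protein, rose by 4 of its 6 probe sets, with all 6 between −0.11 and 0.96. Among the called ones, 1453722_s_at and 1452430_s_at can match transcripts of more than 1 gene. Without such shared probe sets, 7 probe sets of the 5 lists were called higher. The Srsf1 probe set with the smallest p (1430982_at) had 4.48, 4.17 and 4.34 on the implantation arrays and 3.18, 3.54 and 3.38 on the interimplantation arrays, clearly apart (difference 0.96, SE 0.11, limma adjusted p = 0.00114). The difference of 1428099_a_at (0.83) lost its call without implantation array 1, 2 or 3 (limma adjusted p = 0.0836, 0.0619 and 0.0574).

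Srsf2, an SR protein of the speckles, rose by 1 of its 4 probe sets, the shared 1427504_s_at, with 4.31, 4.30 and 4.40 against 3.77, 3.73 and 3.56 (difference 0.65, SE 0.09, limma adjusted p = 0.00243). Tra2b, a transformer-2 protein that binds splicing enhancers, rose by 1 of its 2 probe sets, with 7.42, 7.24 and 7.43 against 6.63, 6.89 and 6.72 (difference 0.62, SE 0.09, limma adjusted p = 0.00473). Both were apart between the groups. In all, 3 of the 11 measured genes of this list had a probe set called higher. Genes with more probe sets had more chances of a call, so nothing is read from this count. With the hybridisation control level as a covariate, Tra2b and 3 of the 4 probe sets of Srsf1 lost their calls (limma adjusted p from 0.0542 to 0.209). The list was mixed, with a negative difference in 11 of its 31 probe sets. Srsf5 (−0.38), which was chosen after its values were seen, was lower on every implantation array and was not called (limma adjusted p = 0.163).

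In the list of import factors, phosphatases and chaperones, 4 of 25 probe sets rose and 0 fell. All 4 belonged to chaperone genes. Hsp90aa1, a chaperone known to bind Srpk1 in human cells, rose by each of its 3 probe sets, with differences from 0.41 to 1.10. The one with the smallest p (1437497_a_at) had 6.84, 6.86 and 7.27 against 6.18, 5.88 and 5.60 (limma adjusted p = 0.00249). The least changed (1438902_a_at, 0.41) lost its call without any single array but interimplantation array 3. Ahsa1, which stimulates the ATPase of Hsp90, had 6.99, 6.99 and 6.93 against 6.33, 6.43 and 6.58 (difference 0.52, limma adjusted p = 0.00853), and lost its call without implantation array 1 and with the hybridisation control level as a covariate (limma adjusted p = 0.0560 and 0.123). Tnpo3, the importer of phosphorylated SR proteins, lay between −0.19 and 0.04 by its 3 probe sets and was named for that role after its values were seen.

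No probe set of the lists of other kinases (27) and of transcriptional cyclins and their kinases (18) was called. Dyrk1a, a relative of the Clk kinases that also phosphorylates splicing factors, was at −0.35 by 1426226_at, the probe set of its smallest p (limma adjusted p = 0.103), while its other probe sets were at 0.05 and 0.11. Hipk3, a nuclear kinase, was at −0.28 by 1426819_at (limma adjusted p = 0.114), a dim probe set with means of 2.45 and 2.74, near the Bacillus median. Ccnh, the cyclin of Cdk7, was at 0.39 by 1418584_at (limma adjusted p = 0.0824), with its 3 probe sets between 0.05 and 0.39. Ccnt2, a cyclin of Cdk9, was at −0.29 by 1427088_at (limma adjusted p = 0.172), with its 3 probe sets between −0.29 and −0.13. The kinase partner of the cyclins L, Cdk11b, named for that role after its values were seen, was at 0.17 (SE 0.09, limma adjusted p = 0.466). Its groups overlapped. At an unadjusted p under 0.05, limma gave 6 lower and 0 higher among the 27 other kinases, and 4 lower and 3 higher among the 18. By the same limit, the SR and transformer-2 proteins had 3 lower and 10 higher of 31, the import factors, phosphatases and chaperones 0 and 7 of 25, and the speckle proteins 6 and 6 of 71. Of all probe sets, 8.35% were lower and 5.63% higher by that limit.

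Of 71 probe sets of nuclear speckle and SR-related proteins, 1 fell and 0 rose, with a median of −0.0032. It was 1 of 9 probe sets of Rbm39, an SR-related splicing factor, with 5.76, 5.46 and 5.51 on the implantation arrays and 6.15, 6.60 and 6.19 on the interimplantation arrays (difference −0.74, SE 0.12, limma adjusted p = 0.00910). The groups were apart in that probe set (1438397_a_at), but the other 8 ran from −0.20 to 0.21 and were not called. The call was lost without implantation array 2 or 3 (limma adjusted p = 0.0564 and 0.0574) and with scaling to the hybridisation controls (−0.34, limma adjusted p = 0.188). Son, a scaffold of the speckles, was at −0.36 by 1435862_at, the probe set of its smallest p, and was not called (limma adjusted p = 0.0931). Its 6 probe sets lay between −0.36 and 0.11.

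**Figure D4:**
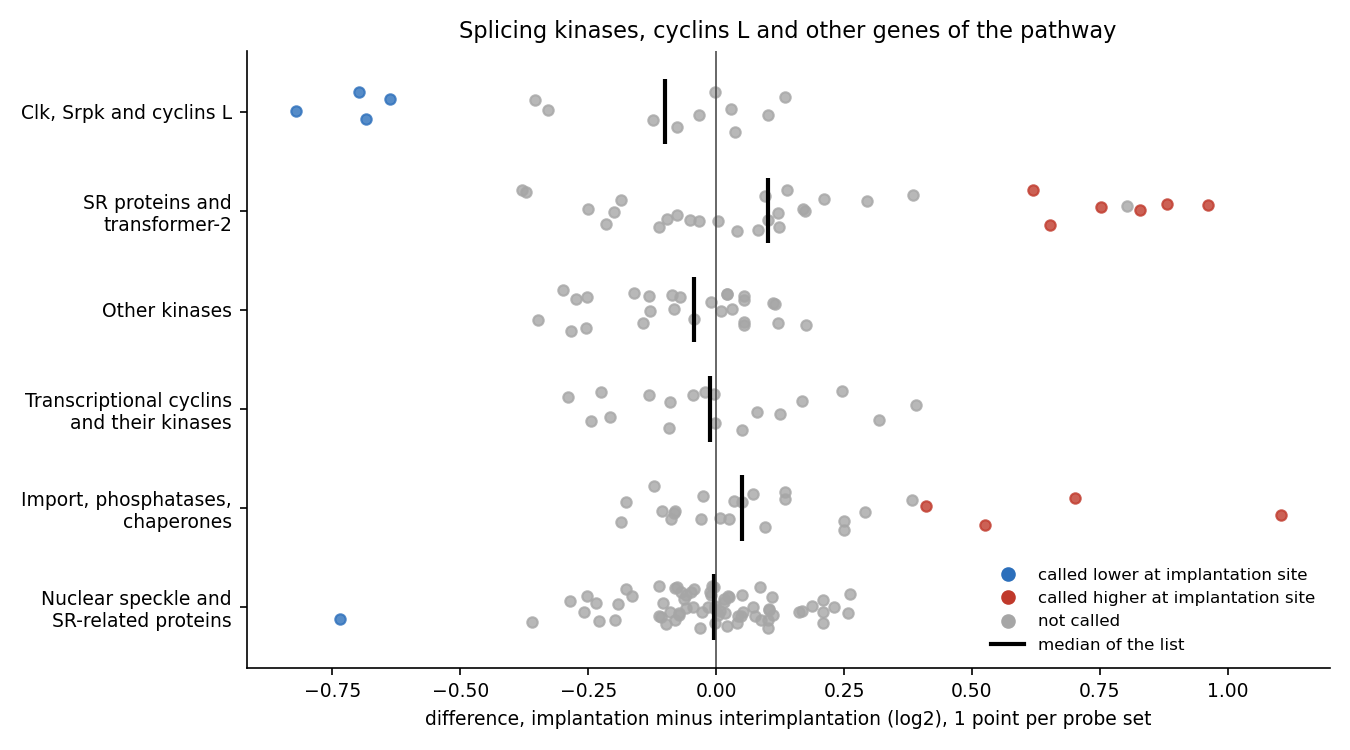
Differences (log2, implantation minus interimplantation) of the Clk, Srpk and cyclin L probe sets in the top row and of the 5 lists of other pathway genes below, 1 point per probe set with vertical jitter only for legibility. Blue points were called lower and red points higher at the implantation site, and black bars are medians. The top row holds 4 blue points, and the row of SR proteins and transformer-2 proteins holds 6 red points.

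The genes whose profile was most like that of Ccnl2 were sought with its probe set 1454149_a_at, the member probe set with the smallest p. Values of each probe set were centred on their mean over the 6 arrays, and likeness was the root mean square distance between profiles, a description that rests on the same 6 arrays. The nearest were Krt10, a keratin (distance 0.06), Irs1, an adaptor of the insulin receptor (0.06), Abca1, an exporter of cholesterol (0.06), Lpgat1, an acyltransferase (0.06), and Wnt7b, an epithelial WNT ligand (0.07). Their differences ran from −0.68 to −0.50, and the groups were apart in all 5. Both follow from the choice by likeness to a probe set that was itself lower and apart, so nothing is read from them. Among the other member probe sets Ccnl1 was nearest (0.17, 223rd of 22625 probe sets). The brightest probe set of Ccnl2 (0.18, 346th) and Clk1 (0.18, 353rd) followed. The probe sets of Clk4 ranked at 695 and 3931, and the last of Ccnl2 at 840. Those of Clk2, Clk3, Srpk1 and Srpk2 ranked from 9963 to 19895. The members were selected on this same contrast and the reference by its p, so nothing is read from these ranks.

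Some marker transcripts of other cell types also differed between the groups. Of all probe sets, 1.05% were called lower and 1.26% higher. The 9 genes that mark the uterus were all measured, among them Pgr and Esr1 (the receptors of progesterone and estrogen) and Hoxa10. Of their 13 probe sets 0 was called, and each was above the Bacillus median. So were 20467 of all 22626 probe sets, so passing that limit does not by itself show expression. Of 12 smooth muscle probe sets 3 fell (Actg2, Tagln and 1 of 2 of Myh11), and their summed linear signal was 545 to 671 on the implantation arrays and 917 to 1340 on the interimplantation arrays. Of 16 epithelial probe sets 3 fell (2 of Cldn3 and 1 of Cldn7), with sums of 661 to 715 and 795 to 868. For the endothelium 0 of 10 was called, with sums of 320 to 327 and 348 to 360, and for erythroid cells 0 of 5, with 97.3 to 102 and 110 to 121. These 4 sums did not overlap between the groups. Stromal sums overlapped at 3045 to 3578 and 3381 to 3833, with 2 of 13 probe sets lower (Pdgfra and 1 of Vim), as did those of leukocytes (570 to 624 and 607 to 692, with Cd74 lower, 1 of 11) and of embryo and trophoblast (339 to 348 and 340 to 367, 0 of 15). Differences were negative in 10 of the 12 smooth muscle, 14 of 16 epithelial, 8 of 10 endothelial and 4 of 5 erythroid probe sets. They were negative in 9 of 13 stromal, 8 of 11 leukocyte, 10 of 15 embryo and trophoblast and 6 of 13 uterus probe sets. Of all probe sets, 55.7% had a difference at or below that of Clk2 (−0.0024). Probe sets of the same gene are counted singly here, so nothing is read from these counts. Of all marker probe sets, that of Cdh1 alone had a mean below the Bacillus median. The part of these cell types in the lower Clk1, Clk4 and Ccnl2 signals was not tested, and in pieces of whole uterus fewer cells of a type and less RNA per cell cannot be told apart.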

How the data were processed

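Total RNA of hamster uterus was hybridised to an Affymetrix mouse array. The deposited log2 values are RMA signals that the authors produced in Partek 6.6, per the submitters' processing notes. These notes give no log base, and base 2 rests on the range of the values. The table held 22690 probe sets. Without its 64 controls, 22626 entered the test, dim ones included. Of these, 20380 had 1 symbol in the platform annotation, 691 several and 1555 none there. All 8 members are also symbols of the hamster RefSeq annotation BCM_Maur_2.0. No genome or sequence was used.

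The groups were compared with limma 3.58.1 in R 4.3.3 (lmFit and eBayes, group as the only term, two-sided, Benjamini-Hochberg adjustment over 22626 probe sets, threshold 0.05), a calculation tested on simulated data. The members, the lists and the alternatives were chosen with earlier results of these data known. Named were all members, of each pathway list every gene with a called probe set and, where fewer than 2 were called, the 2 genes with the smallest p, and the 5 genes most alike in profile. Alternatives left out each array, used the replicate number as a block, a trended and robust variance, array weights, repeated quantile normalization, the hybridisation controls as scale or covariate, 2 filters on dim probe sets, no shared probe sets (_s_at or _x_at), and 1 mean value for each gene. Figures were drawn with matplotlib 3.10.9.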

Additional observations from a re-analysis of the deposited data

How the results depend on the processing

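The number of member probe sets called lower was 4 and stayed at 3 or 4 under every alternative counted in probe sets but scaling to the hybridisation controls, where it was 0. It was 3 to 4 with 1 array left out, and the number called higher was 0 throughout. Over all probe sets, 238 lower and 284 higher calls became 88 to 401 and 117 to 329 with 1 array left out, 13 and 752 with scaling to the hybridisation controls, and 130 and 77 with their level as a covariate. With array weights 363 were lower. Of the pathway lists, 1 lower and 10 higher calls became 0 to 3 and 7 to 10 with 1 array left out, 0 and 17 with the scaling, 2 and 4 with the covariate, and the lower calls 3 with array weights or above the brightest Bacillus control.

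Clk1 and the Ccnl2 probe set 1454149_a_at were called in 14 of 15 alternatives each, all but the scaling. The brightest Ccnl2 probe set also lost its call with the covariate (−0.76, limma adjusted p = 0.0624). Signs turned for small differences. With the scaling, these were Clk2 (0.39), Clk3 (0.32), the dimmer Clk4 probe set (0.27), Srpk2 1417135_at (0.36), Ccnl1 (0.0428), Ccnl2 1432195_s_at (0.0681), Ccnt2 (0.11), Son (0.0363), Dyrk1a (0.0494) and Hipk3 (0.11), which follows from the upward shift of all probe sets. With the covariate they were Srpk2 1417135_at (0.12) and 1448603_at (−0.20), and with repeated quantile normalization Clk2 (0.0219). With 1 array left out, Clk2 ran from −0.0485 to 0.0241, Clk3 from −0.17 to 0.0533, and Srpk2 1417135_at from −0.12 to 0.0837, 1417136_s_at from −0.12 to 0.20 and 1448603_at from −0.0306 to 0.13. Of all alternatives for single probe sets, 373 left direction and call as they were, 29 ended a call, 4 made one and 24 turned a sign. The cause was not tested.

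The labels do not say whether same-numbered implantation and interimplantation arrays came from the same animals. Deviations of same-numbered arrays from their group means correlated at −0.09 to 0.07, and those of different-numbered arrays at −0.09 to 0.10. With so few arrays these values cannot settle the pairing, and the main fit had no block. With the replicate number as a block, 4 member probe sets were lower and 0 higher (240 and 294 over all probe sets), and the probe set 1438902_a_at of Hsp90aa1 lost its call (limma adjusted p = 0.0521).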
